A study of Gallus gallus with 5 samples.

Results

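The cytosolic ribosomal protein genes of the regenerating chicken feather follicle were described across all libraries of the series. They were taken as the rows named RPL or RPS followed by a number, with the kinase genes named RPS6K left out. This name rule took 66 of 17108 rows, 24 for the small and 42 for the large subunit, each name having 1 row. Of these, 62 averaged 1 FPKM or more across libraries and were tested, 23 small and 39 large subunit genes. FPKM are fragments per kilobase of transcript scaled to the mapped fragments of a library, so levels of different genes are set side by side per length. Reads shared between similar genes can still distort such levels.

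Wing flight feather follicles of Gallus gallus were plucked to start regrowth, and each library was made from 5 pooled follicles. The genotypes were wild type (2 libraries), Wnt5a-over expression (1), lnc7831 knockdown (1) and lnc3500 knockdown (1). Lentiviral vectors carried the treatments, pLVX-Zsgreen for overexpression and pLL3.7 for knockdown, and the labels name no empty-vector library and no bird age. WNT5A itself, the gene named in the overexpression label, had 29.7 and 64.3 FPKM in wild type. It had 75.7 in the library labelled Wnt5a-over expression, 162 for lnc7831 knockdown and 43.8 for lnc3500 knockdown. After centring on the median gene it lay between the wild-type libraries in the library that bears its name (log2 difference 0.19, SE 0.59) and was highest in lnc7831 knockdown (1.16). After centring, the label was thus not borne out by its target, though WNT5A differed by 1.04 between the wild-type libraries. As deposited its 75.7 FPKM was above both of them, and 1 library cannot settle whether it was overexpressed. That library is named by its label throughout. The long noncoding RNAs lnc7831 and lnc3500 were not analysed here. The wild-type titles alone carry a tag, T4, and its meaning cannot be separated from the treatments. The labels give dermal papilla as the source, the mesenchyme at the follicle base. Markers of epidermal cells were nevertheless present in every library, 13 of 14 averaging 1 FPKM or more and KRT5 listed at 0, so epithelial RNA was included.

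A eukaryotic ribosome joins a small subunit, which reads the mRNA, to a large subunit, which makes the peptide bond. Each ribosomal protein is usually present once per ribosome, and the stalk proteins P1 and P2 are the exception. In vertebrates the mRNAs of these proteins start with an oligopyrimidine tract (TOP), through which the kinase mTORC1 controls their translation together. Growing tissues such as a regenerating feather need many ribosomes, and these mRNAs are generally among the most abundant of a cell.

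In wild type the ribosomal protein genes filled about as many of the highest places as all other genes together. They took 50 and 48 of the 100 highest rows in wild-type libraries 1 and 2, 45 in the library labelled Wnt5a-over expression, 43 in lnc7831 knockdown and 44 in lnc3500 knockdown. In wild type the median tested member had 1877 and 1643 FPKM, and the median tested gene 8.62 and 9.55. In the treated libraries the median member had 2940 FPKM in the library labelled Wnt5a-over expression, 2443 in lnc7831 knockdown and 2730 in lnc3500 knockdown. Small subunit genes had the higher median in every library, with 2576 and 1923 FPKM in wild type against 1828 and 1531 for the large subunit.

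Levels within the family spread widely although the proteins are needed in about equal numbers. The highest row was RPL36, a large subunit protein, with 75096 and 32107 FPKM in wild type. It reached 107501 FPKM in the library labelled Wnt5a-over expression, 82033 in lnc7831 knockdown and 95345 in lnc3500 knockdown. After the centring described below, its treated libraries all lay between the wild-type libraries. Whether shared reads or the length scaling raise the RPL36 value was not tested. RPL37A and RPLP1, also of the large subunit, had 7182 and 6844 FPKM on average in wild type. At the low end of the large subunit stood RPL7L1, a paralog of RPL7 to which equal need may not apply, with 98.5 and 93.2 FPKM in wild type. Next above it came RPLP2, with 321 and 211, and RPL21, with 340 and 262. The lowest small subunit gene was RPS16, with 281 and 219. Most members were far above that, with 50 and 48 of 62 at 1000 FPKM or more in wild-type libraries 1 and 2.

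**Figure D1:**
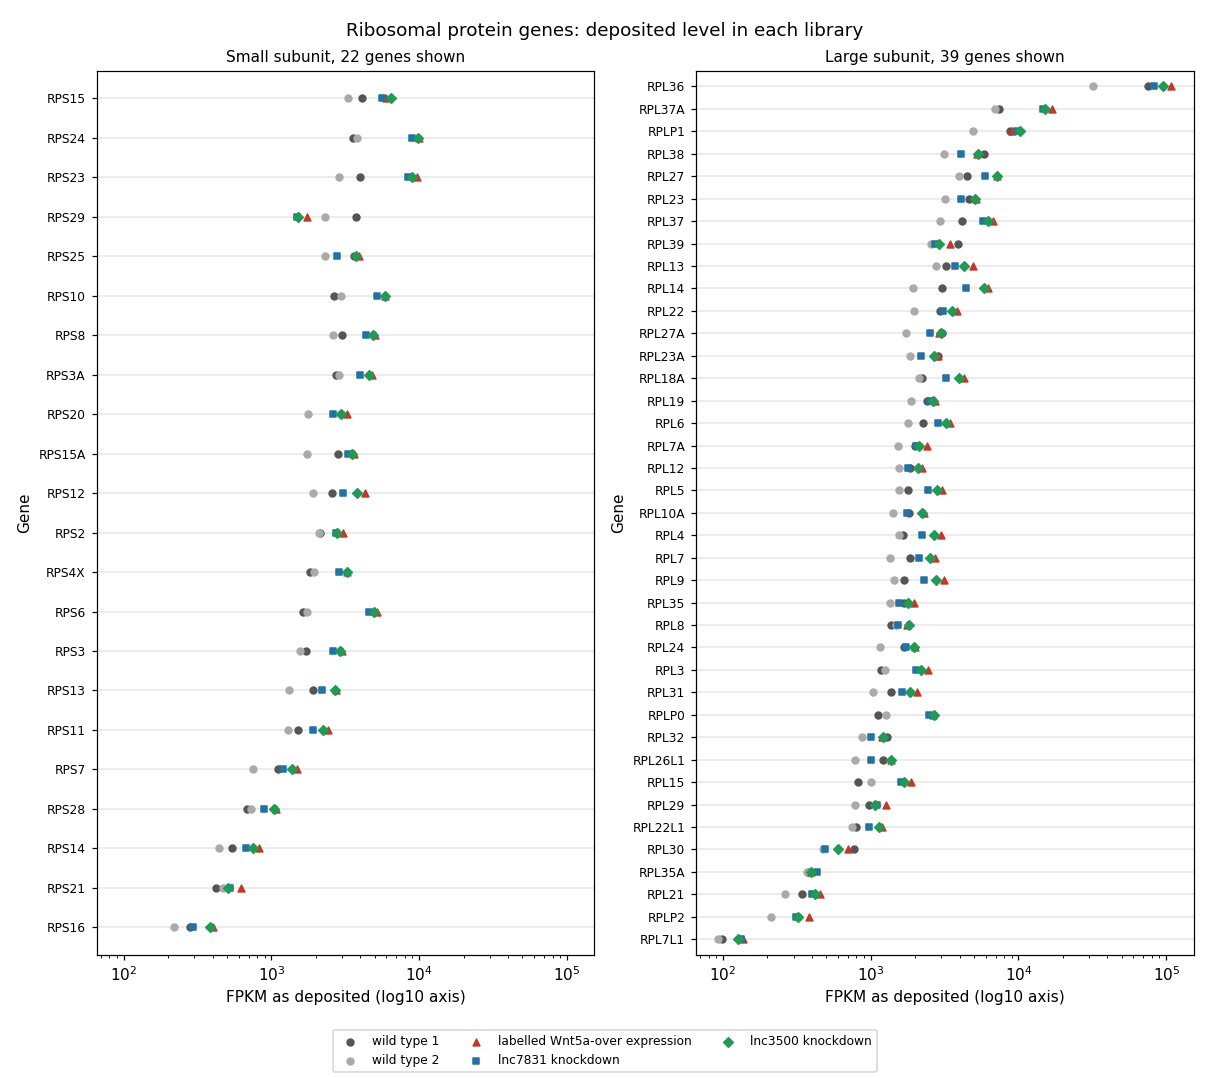
Deposited FPKM (log10 axis) of 22 small and 39 large subunit genes, 1 symbol per library, genes ordered by the wild-type mean. RPL36 stands above the others drawn, and RPS29 is the gene drawn whose 3 treated libraries all lie below both wild-type libraries on this scale.

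The other 4 rows fell under the filter. RPL34, RPS26 and RPL10L were listed at 0 in all 5 libraries. RPL34 and RPS26 encode constituent proteins of every ribosome, so their 0 may be a failed estimate and is not read as absence. RPL3L, a striated muscle paralog of RPL3 in mammals, was listed at 0 in both wild-type libraries and in the library labelled Wnt5a-over expression, at 0.36 FPKM in lnc7831 knockdown and at 0.13 in lnc3500 knockdown. RPL3 itself, a protein near the peptidyl transferase centre, had 1181 and 1256 FPKM in wild type.

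Most ribosomal protein genes were lower in wild-type library 2 than in library 1. As deposited FPKM carry a shift between libraries, differences are given after median centring, in which the median gene is set level across libraries, and on the log2 scale after adding 1. On this scale 51 of 62 members were lower in library 2, against 49.3% of all genes tested, with a median difference of -0.41 for the members and 0.01 for all genes. The large subunit had 35 of 39 lower (median -0.44) and the small subunit 16 of 23 (median -0.37). The widest gap was that of RPL36, at -1.29, the 1 member at least 2-fold lower in library 2, where all genes gave 3.64%. Members at least 2-fold higher there numbered 0, against 8.42% of all genes. RPL38, which in mouse embryos is required for the translation of a subset of Hox mRNAs, was at -0.98, with 5886 and 3110 FPKM. RPLP1 was at -0.89 and RPL27A at -0.88. RPS6, RPS24, RPL3 and RPS4X were between 0.01 and 0.03.

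Proliferation markers were also lower in library 2, in 11 of 12, with a median of -0.47 and summed FPKM of 485 and 387. After centring, 10 of 12 were above the wild-type mean in lnc7831 knockdown (median 0.35), 9 of 12 below it in the library labelled Wnt5a-over expression (median -0.33) and 8 of 12 below it in lnc3500 knockdown (median -0.03). Their part in the ribosomal protein differences was not tested. In pooled tissue, fewer cells of a type and less RNA per cell cannot be told apart. Each wild-type library therefore gives a different baseline, and the comparisons below are given against their mean, with the medians of gene groups also against each library alone. All 3 comparisons share these 2 libraries. A treated group has 1 library, so limma assumes that it varies like wild type, and the standard error (SE) of a gene is the same in all 3.

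As deposited, most genes were higher in the treated libraries, and the log2 difference of the median gene was 0.54, 0.64 and 0.56 in the library labelled Wnt5a-over expression, lnc7831 knockdown and lnc3500 knockdown. On that scale 61, 55 and 59 of 62 members lay above the wild-type mean, beside 87.6%, 93.1% and 90.2% of all genes. With all libraries scaled to the same FPKM sum these were 48, 4 and 7, beside 63.5%, 18.8% and 20.2% of all genes. Such scalings divide each library by 1 factor, but with 1 added before taking log2, low genes shift less than abundant ones. Counted against the median gene, members above it numbered 36, 11 and 28 after centring, 39, 14 and 36 as deposited and 37, 9 and 24 under equal sums. The values below are relative to the median gene.

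In the library labelled Wnt5a-over expression, where WNT5A was within the wild-type range after centring, the family was close to the median gene. Small subunit genes had a median relative log2 difference of 0.17, with 18 of 23 above the wild-type mean. Large subunit genes had a median of -0.05, with 18 of 39 above, and that sign turned to 0.01 relative to the median gene on values as deposited. Of the 62 members 23 lay above both wild-type libraries, where all genes gave 31.8%, and 12 below both, where all genes gave 32.8%. Members at least 2-fold past both wild-type libraries numbered 0, against 2.18% of all genes above and 1.74% below. Against wild-type library 1 alone the medians were 0.02 and -0.24 for small and large subunit genes, and against library 2 alone 0.33 and 0.25. Limma called 0 of 62 members at an adjusted p below 0.05 (0.00907% of all genes), and 0 passed an unadjusted p below 0.05 (4.01% of all genes).

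In lnc7831 knockdown most of the family lay below wild type relative to the median gene. Of the 62 members 43 were below both wild-type libraries, 13 of the small and 30 of the large subunit, against 32.3% of all genes. Above both were 7, against 31% of all genes. The median was -0.24 for the small and -0.38 for the large subunit, and all genes had a median of 0.00. It kept its sign against wild-type library 1 alone, at -0.39 and -0.57, but shrank to -0.02 and -0.14 against library 2 alone. As deposited the same medians were 0.47 and 0.34, below the 0.64 of all genes. Limma called 0 members after adjustment (0.0363% of all genes), and 1, RPS29, passed an unadjusted p below 0.05 (3.04% of all genes). That gene was also the 1 member at least 2-fold below both wild-type libraries (1.32% of all genes), with 0 at least 2-fold above both (1.64%).

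In lnc3500 knockdown the family again lay near the median gene. The small subunit had a median of 0.07 and the large subunit -0.13, with 14 of 23 and 14 of 39 above the wild-type mean. Scaled to equal sums, the small subunit median relative to the median gene was 0.01. Equal numbers of members, 17 of 62, lay above both wild-type libraries (31.9% of all genes) and below both (32.2%). Both medians changed sign with the baseline, at -0.10 and -0.36 against wild-type library 1 and 0.28 and 0.16 against library 2. At least 2-fold past both wild-type libraries were 1 member above (1.43% of all genes) and 1, RPS29, below (1.64%). Limma called 0 members after adjustment (0% of all genes), while 2, RPS29 among them, passed an unadjusted p below 0.05 (3.08% of all genes).

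**Figure D2:**
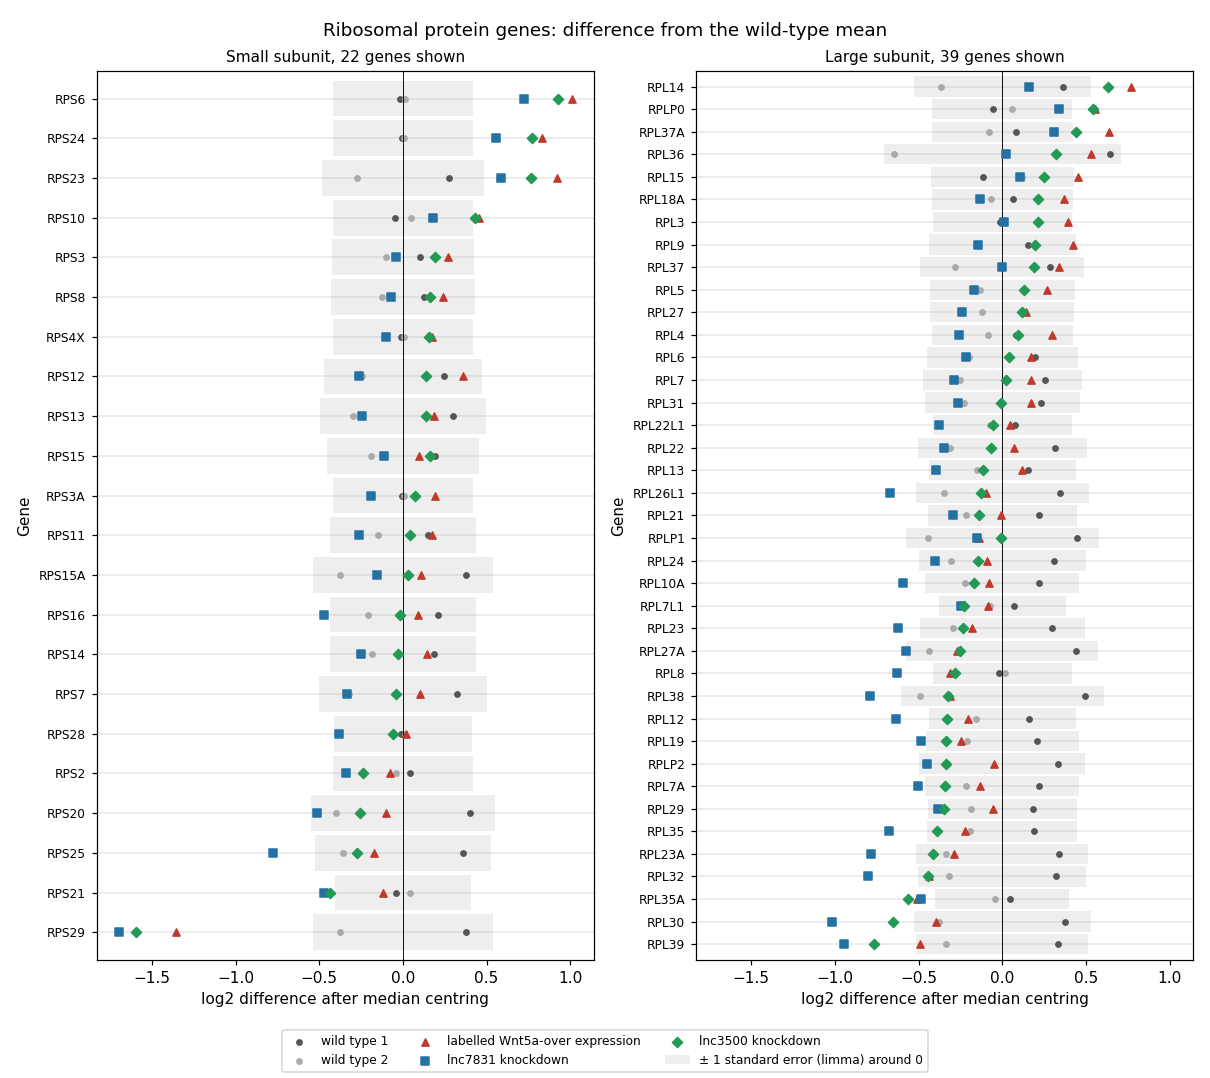
Log2 difference from the wild-type mean after median centring, for 61 tested genes in each library, with grey bars for 1 limma standard error on either side of 0. RPS6, RPS24 and RPS23 lie to the right of their bars in all 3 treated libraries and RPS29 to the left, while RPL35A is the other gene beyond its bar in all 3, to the left.

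Members are given below by direction, small subunit before large. Limma gave each of them an adjusted p of 1 in all 3 comparisons after centring, so 0 passed the threshold.

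RPS6, the protein phosphorylated by the S6 kinases downstream of mTORC1, had 1632 and 1740 FPKM in wild type against 5143 in the library labelled Wnt5a-over expression, 4575 for lnc7831 knockdown and 4971 for lnc3500 knockdown. Values of later genes keep this order. The wild-type libraries were nearly equal here and the treated ones close to each other. Its differences were 1.01, 0.72 and 0.92 (SE 0.42).

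RPS24, a gene mutated in some human Diamond-Blackfan anaemia, had 3591 and 3773 FPKM in wild type against 9925, 8886 and 9757, with differences of 0.83, 0.56 and 0.77 (SE 0.42). RPS23, which sits at the decoding centre and affects the accuracy of translation, had 4004 and 2867 FPKM against 9727, 8336 and 8941. Its differences were 0.92, 0.58 and 0.76 (SE 0.48), or 0.65, 0.31 and 0.49 against wild-type library 1 alone. RPS10 had smaller differences of 0.46, 0.18 and 0.43 (SE 0.42), with 2653 and 2956 FPKM in wild type against 5835, 5219 and 5860. In all of these the treated libraries lay above both wild-type libraries.

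Among large subunit genes the higher members were RPL14, RPL37A, RPLP0, RPL36 and RPL15. RPL14 had 3043 and 1921 FPKM in wild type against 6259, 4439 and 5816, with differences of 0.77, 0.16 and 0.63 (SE 0.53). In lnc7831 knockdown it lay between the wild-type libraries after centring. RPL37A had 7419 and 6945 FPKM against 16929, 14613 and 15166, with differences of 0.64, 0.31 and 0.44 (SE 0.42), all above both wild-type libraries. RPL15 had 817 and 1004 FPKM against 1878, 1598 and 1676, with differences of 0.45, 0.10 and 0.25 (SE 0.43), and in lnc7831 knockdown it too lay between the wild-type libraries. RPL36 was within the wild-type range in all 3, at 0.53, 0.02 and 0.32 (SE 0.71).

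The lateral stalk of the large subunit, which recruits elongation factors, was not uniform. RPLP0, its anchor, had 1113 and 1259 FPKM in wild type against 2633, 2464 and 2679, with differences of 0.55, 0.34 and 0.54 (SE 0.42) and no overlap with wild type. RPLP1 had 8749 and 4939 FPKM against 9046, 9730 and 10174, with differences of -0.14, -0.15 and -0.01 (SE 0.58), inside the wild-type range. RPLP2 had 321 and 211 FPKM against 381, 312 and 320, with differences of -0.05, -0.45 and -0.34 (SE 0.50). The FPKM ratio of RPLP1 to RPLP0 was 7.86 and 3.92 in wild type and 3.44, 3.95 and 3.80 in the treated libraries, so wild-type library 1 stood apart. RPLP1 exceeded RPLP2, its partner in a dimer, by 23.4 to 31.8 times across the 5 libraries.

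RPS29, a zinc-binding protein of the small subunit head, was the lowest relative to wild type in all 3 libraries. It had 3734 and 2314 FPKM in wild type. It had 1741 FPKM in the library labelled Wnt5a-over expression, 1490 in lnc7831 knockdown and 1511 in lnc3500 knockdown. Every treated library was below both wild-type libraries even as deposited, where most genes were higher. Its relative log2 differences were -1.36, -1.70 and -1.60 (SE 0.54), with unadjusted p of 0.0695, 0.0380 and 0.0451 in limma. Against wild-type library 2 alone they were -0.98, -1.32 and -1.22. The FPKM ratio of RPS6 to RPS29, both parts of the same subunit, was 0.44 and 0.75 in wild type and 2.95, 3.07 and 3.29 in the treated libraries.

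Other small subunit genes were lower by less. RPS21 had 423 and 468 FPKM in wild type against 621, 526 and 511, with differences of -0.12, -0.47 and -0.44 (SE 0.40) and all treated libraries below wild type after centring. RPS25, which some viral internal ribosome entry sites need, had 3615 and 2304 FPKM against 3885, 2772 and 3714. It was at -0.77 in lnc7831 knockdown (SE 0.53) and within the wild-type range in the library labelled Wnt5a-over expression and in lnc3500 knockdown.

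Large subunit genes made up most of the lower members, as they did of all members tested (39 of 62). In the 3 treated libraries 21, 32 and 25 of 39 large subunit genes lay below the wild-type mean. Of 23 small subunit genes 5, 18 and 9 did. RPL39, a small protein lining the exit tunnel, had 3908 and 2570 FPKM in wild type against 3426, 2703 and 2902, with differences of -0.49, -0.95 and -0.76 (SE 0.51). RPL30 had 770 and 478 FPKM against 700, 492 and 600, with differences of -0.39, -1.02 and -0.65 (SE 0.53). RPL35A, another Diamond-Blackfan anaemia gene in human, had 375 and 368 FPKM against 396, 434 and 391. These values were nearly level as deposited, which placed RPL35A at -0.51, -0.49 and -0.56 (SE 0.40) relative to the median gene. RPL32 was at -0.44, -0.80 and -0.44 (SE 0.50). All 4 lay below both wild-type libraries in every treated library after centring.

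RPL23A and RPL35 are among the proteins around the tunnel exit, where nascent chains meet targeting factors. After centring, both genes lay below both wild-type libraries in the knockdown libraries, and RPL35 also in the library labelled Wnt5a-over expression. RPL23A had 2831 and 1855 FPKM in wild type against 2848, 2188 and 2672, with differences of -0.29, -0.78 and -0.42 (SE 0.51). RPL35 had 1687 and 1350 FPKM against 1965, 1550 and 1794, with differences of -0.22, -0.68 and -0.39 (SE 0.45). RPL38 was at -0.31, -0.79 and -0.32 (SE 0.61). In the first and last of these libraries it lay inside the wild-type range, at 0.18 and 0.17 against wild-type library 2 alone. RPL8, near the peptidyl transferase centre, was at -0.31, -0.63 and -0.28 (SE 0.41), below both wild-type libraries in each. RPL12, RPL19, RPL7A, RPL27A and RPL29 had differences from -0.64 to -0.06 over the 3 libraries. All 5 lay below both wild-type libraries in lnc7831 knockdown, while RPL27A was inside the wild-type range in the other treated libraries. RPL7A and RPL29 were also inside it in the library labelled Wnt5a-over expression.

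Some members have a near copy. RPL22 had 2925 and 1976 FPKM in wild type against 3830, 3102 and 3569, and its paralog RPL22L1 790 and 743 against 1199, 967 and 1144. The ratio of RPL22 to RPL22L1 was 3.70 and 2.66 in wild type and 3.20, 3.21 and 3.12 in the treated libraries, inside the wild-type range. The ratio of RPL7 to RPL7L1 was 18.8 and 14.6 in wild type and 19.8, 16.1 and 19.8 in the treated libraries, slightly above the wild-type range in the library labelled Wnt5a-over expression and lnc3500 knockdown. RPL26L1, whose counterpart RPL26 has no row under that name, had 1203 and 777 FPKM against 1372, 996 and 1374. RPS4X, whose human gene is on the X chromosome, was at 0.18, -0.10 and 0.16 (SE 0.42), and no row is named RPS4Y1. Such copies can share reads, and no label says how the authors assigned fragments that map to several places. RPL5, which carries the 5S ribosomal RNA and can bind MDM2 when ribosome assembly fails, was at 0.27, -0.17 and 0.13 (SE 0.43).

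The 3 treated libraries resembled each other in their ribosomal protein profile more closely than the wild-type libraries did. Across the 62 members, Spearman's rho of the FPKM was 0.99 for each pair of treated libraries and 0.95 for the wild-type pair. Between treated and wild-type libraries it was 0.88 or 0.89 for library 1 and 0.935 for library 2. Over all genes tested the treated pairs, at 0.94, 0.98 and 0.95, also stood above the wild-type pair, at 0.91. The closer likeness of the treated libraries was therefore not particular to the family. Over all genes, treated libraries had 0.89 to 0.90 with wild-type library 1 and 0.93 to 0.94 with library 2. The latter was above the wild-type pair, unlike among the members. These are descriptions, without a test, across genes of shared libraries, in which gene length and base composition are common to both sides.

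In direct differences between treated libraries, nearly all members lay on the same side. The library labelled Wnt5a-over expression exceeded lnc7831 knockdown in 61 of 62 members, with a median of 0.39 and quartiles of 0.31 and 0.46, where all genes had 0.00, -0.26 and 0.24, with 49.3% higher. RPL35A, at -0.02, was the exception, and RPL30, at 0.62, the highest. The library labelled Wnt5a-over expression exceeded lnc3500 knockdown in 57 members, with a median of 0.13, against 52.0% of all genes. In lnc7831 knockdown 61 members lay below lnc3500 knockdown, with a median of -0.27, against 49.3% of all genes, and RPL35A was again the exception, at 0.07.

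The interquartile range of the members was 0.14, 0.12 and 0.16 log2 units in these 3 pairs and 0.48 between the wild-type libraries. All genes tested had 0.50, 0.32, 0.46 and 0.73, and the 147 other genes averaging 500 FPKM or more, a level chosen after the values were seen, had 0.60, 0.34, 0.54 and 0.87. These abundant other genes, which include RPSA, EEF2 and GNB2L1, leaned the same way between treated libraries. Their medians were 0.20, 0.03 and -0.18 in the 3 pairs, with 63.9% higher, 54.4% higher and 70.1% lower. Against wild type they did not follow the members throughout. Against wild-type library 1 the treated libraries had medians of 0.14, 0.07 and 0.17 for these genes and -0.10, -0.51 and -0.25 for the members. Against library 2 these were 0.25, 0.06 and 0.28, and 0.29, -0.11 and 0.18. With 1 library per treated group, these differences compare libraries and have no test. Epidermal markers had summed FPKM of 8680, 7270 and 7500 in the 3 treated libraries against 1900 and 3140 in wild type, and leukocyte markers 140, 201 and 126 against 245 and 244. After centring, 13, 11 and 13 of 13 epidermal markers were above the wild-type mean and 10, 9 and 11 of 12 leukocyte markers below it. Their part in the ribosomal protein differences was not tested.

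**Figure D3:**
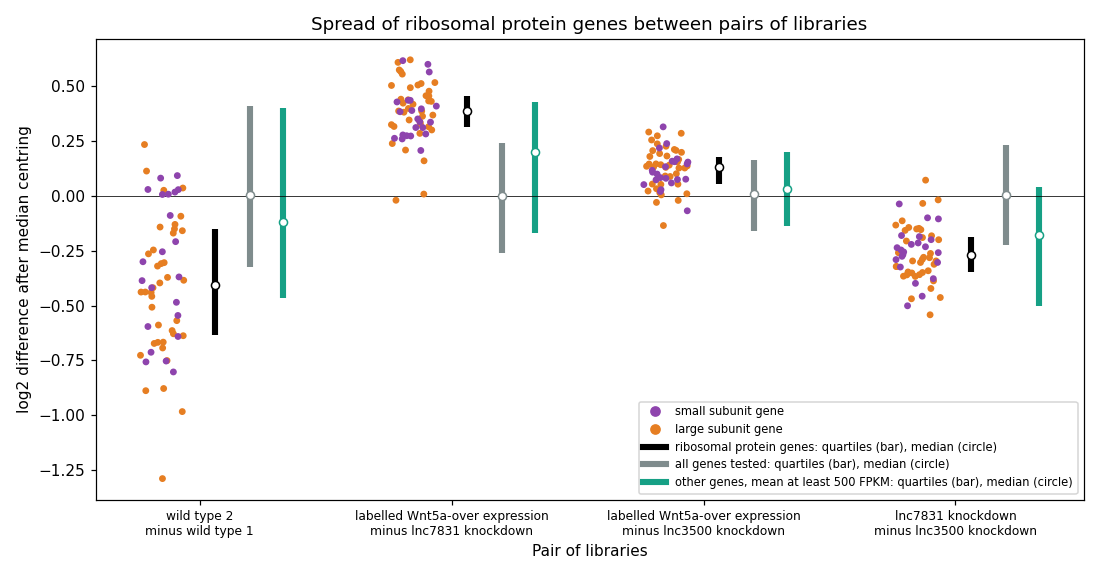
Log2 differences after median centring between pairs of libraries, with points for 61 ribosomal protein genes, with bars for the quartiles and circles for the median of the members, all genes tested and other genes of at least 500 FPKM. The members' quartiles span 0.12 to 0.16 between treated libraries and 0.48 between the wild-type libraries.

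Other genes of the translation machinery were read from lists. RPSA, a small subunit protein that the name rule does not take, had 2108 and 1812 FPKM in wild type against 3320, 3400 and 3327, with relative log2 differences of 0.16, 0.08 and 0.13 (SE 0.43). In each list described here limma called 0 members in each comparison over all genes. The 25 initiation factors tested had medians of 0.10, -0.24 and -0.04 in the library labelled Wnt5a-over expression, lnc7831 knockdown and lnc3500 knockdown, and -0.36 between wild-type libraries 2 and 1, with 19 lower in library 2. Against wild-type library 1 alone they were -0.11, -0.34 and -0.18 and against library 2 alone 0.29, -0.12 and 0.11, so the first and last changed sign with the baseline. PABPC1, the poly(A)-binding protein, had 249 and 254 FPKM in wild type against 614, 377 and 479, with differences of 0.68, -0.13 and 0.29. EIF3E was at 0.58, 0.09 and 0.43. Lower ones were EIF3J, at -0.03, -0.80 and -0.22 (SE 0.56), and the row named EIF2B, at -0.11, -0.68 and -0.28 (SE 0.68). That row was taken into the list only because EIF2B is a synonym of EIF2S2, a subunit of the factor eIF2. In lnc7831 knockdown 20 of the 25 were below the wild-type mean.

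Elongation and termination factors had 9 rows tested, with medians of -0.04, -0.35 and -0.20. These were -0.15, -0.42 and -0.25 against wild-type library 1 and 0.23, -0.02 and 0.13 against library 2. Both EF1A rows are in the list. EF1A (ENSGALG00000015917), which brings aminoacyl-tRNA to the ribosome, had 3843 and 4614 FPKM in wild type against 8323, 7435 and 8029, with differences of 0.38, 0.10 and 0.29 (SE 0.43). The other EF1A row (ENSGALG00000005843) was near the filter, with 0.54 and 3.29 FPKM against 1.39, 1.01 and 0.93, and differences of -0.45, -0.73 and -0.75 (SE 0.83) inside the wild-type range. EEF2, the translocation factor, had 405 and 697 FPKM against 1211, 1108 and 1264, with differences of 0.58, 0.34 and 0.61 (SE 0.52). EEF1D was at 0.18, -0.44 and 0.12 (SE 0.42). The list of TOP mRNAs other than those of ribosomal proteins shares genes with the lists above, PABPC1 and EEF2 among them. Its 13 tested rows had medians of 0.37, -0.09 and 0.25, and 0.06 between wild-type libraries 2 and 1. These were above both subunit medians against the wild-type mean. Against wild-type library 2 alone they were 0.28, -0.12 and 0.21, below the 0.33, -0.02 and 0.28 of the small subunit, and against library 1 alone 0.42, 0.02 and 0.28. GNB2L1, the RACK1 scaffold of the small subunit, was at 0.32, -0.09 and 0.32, and TPT1 at 0.39, 0.12 and 0.31.

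The 50 ribosome biogenesis factors tested had medians of -0.11, -0.22 and -0.10, with 32, 38 and 33 below the wild-type mean, and 41 were lower in wild-type library 2. Their medians were -0.26, -0.37 and -0.24 against library 1 and 0.00, -0.09 and 0.00 against library 2. PES1, of the complex that matures the large subunit RNA, was at 0.74, 0.27 and 0.56, and the nucleolar acetyltransferase NAT10 at -0.74, -0.43 and -0.50. The other factors that the naming rule takes, PNO1, NOP58, KRR1 and NHP2, were lower in each treated library, from -0.80 to -0.28. The 16 mTORC1 and translational control genes had medians of 0.08, -0.11 and 0.08, which were 0.23, 0.07 and 0.27 against library 1 and 0.06, -0.10 and 0.00 against library 2. MKNK2, a kinase of the cap-binding factor, had 8.78 and 17.9 FPKM in wild type against 56.0, 26.5 and 42.2. In the library labelled Wnt5a-over expression MKNK2 was the 1 gene of these 16 past 2-fold over each wild-type library, where all genes gave 2.18%. Its differences in the knockdown libraries were 0.34 and 1.06 (SE 0.52). MYC, a driver of ribosome production, had 15.2 and 23.0 FPKM against 29.0, 14.9 and 34.0. It was at 0.03, -0.99 and 0.21 (SE 0.40), and at 0.51 in wild-type library 2 against library 1. Its part in the ribosomal protein differences was not tested.

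Mitochondrial ribosomal proteins, which serve a separate ribosome, had 57 rows tested and medians of -0.11, -0.22 and -0.15, which were -0.22, -0.29 and -0.28 against library 1 and -0.02, -0.06 and -0.05 against library 2. MRPS18C had the largest difference of the list in the library labelled Wnt5a-over expression but was uneven across treated libraries. It had 13.2 and 11.9 FPKM in wild type against 6.20, 17.5 and 12.4, with differences of -1.45, -0.22 and -0.61 (SE 0.32). MRPL41 had 47.6 and 64.0 FPKM in wild type against 33.6, 36.0 and 26.3, with differences of -1.29, -1.30 and -1.66 (SE 0.38). MRPL54 was at -0.56, -1.02 and -0.63 (SE 0.45). MRPL9 had 480 and 630 FPKM against 1552, 1733 and 1874, and was at 0.89, 0.94 and 1.13 (SE 0.44).

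**Figure D4:**
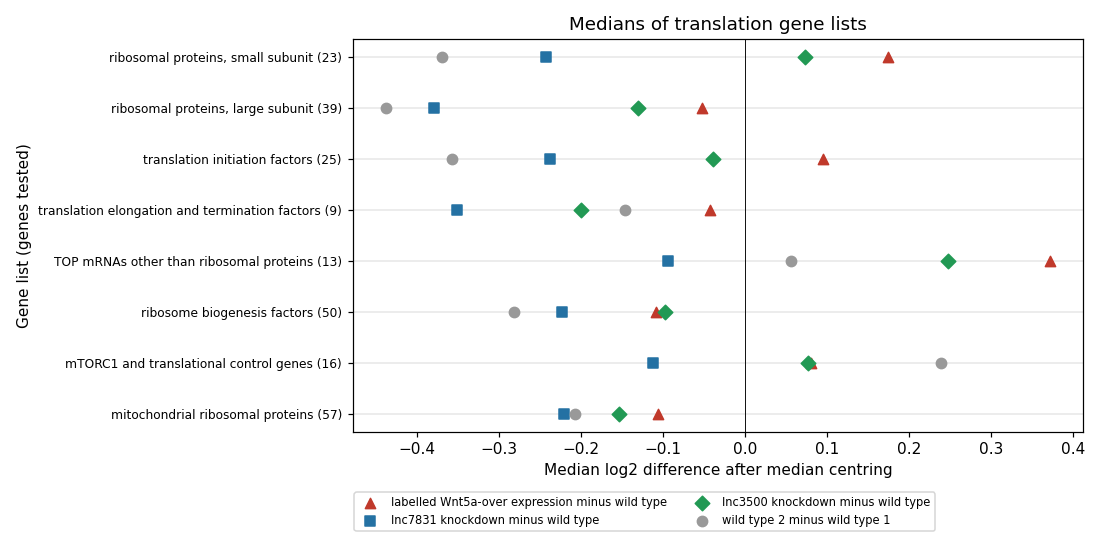
Median log2 difference after median centring of the ribosomal protein genes by subunit and of 6 translation gene lists, with the number of genes tested in brackets, for each treated library against wild type and for wild-type library 2 against library 1. In lnc7831 knockdown every list median lies below 0, from -0.38 for the large subunit to -0.09 for other TOP mRNAs. Some genes are in more than 1 list.

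The ribosomal protein genes held 23.5% and 17.8% of the summed FPKM of the wild-type libraries. They held 29.5% in the library labelled Wnt5a-over expression, 14.4% in lnc7831 knockdown and 18.5% in lnc3500 knockdown. Without RPL36 the shares were 15.9% and 14.1% in wild type and 20.9%, 10.5% and 13.6% in the treated libraries, which placed lnc3500 knockdown below both wild-type libraries instead of between them. Summed FPKM ranged from 860352 to 2097886 FPKM, so a share moves with the few highest rows of its library and is no measure of ribosomal protein mRNA per cell. The 26 rows named 5S_rRNA were listed at 0 in all libraries, and ribosomal RNA was not analysed here.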

How the data were processed

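FPKM per gene, 1 column per library, were deposited by the authors. TopHat2 2.1.0, Cufflinks 2.2.1 and the build galGal4 are named, without their order, per the submitters' processing notes. Scaling between libraries, strand and multiple mapping are not given in the sources used here. Depth is unknown, so no counting interval is given. Of 797 rows under 0.5 FPKM in both wild-type libraries, 107 had a log2 ratio of library 1 to library 2 within 0.02 of -0.18. As scaling between libraries is not given, this ratio cannot be read as their relative depth.

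Each library's FPKM were divided by the median, over genes, of their ratio to that gene's geometric mean (factors 0.751, 0.784, 1.16, 1.26 and 1.19), taken to log2 after adding 1, and tested with limma 3.58.1 in R 4.3.3 (trend, all 5 libraries, two-sided, Benjamini-Hochberg over 11031 genes averaging 1 FPKM or more, threshold 0.05). The fit has 1 residual and 2.70 prior degrees of freedom. Nothing says whether the wild-type repeats came from separate birds, so the p-values measure the spread between these libraries, which may be technical. A fold on this scale understates low genes.

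Members and lists were chosen with earlier results of these data known. Named were the 10 members with the largest difference in each direction per comparison, the 3 highest and lowest per subunit, members with near copies, the stalk and 5S RNA proteins, members listed at 0, and, of each list, genes among the 2 with the largest difference per comparison. Among them, 1 member that the rule names is not reported here, though counts and medians include it. WNT5A was added as the targeted gene, and the higher EF1A row, GNB2L1 and TPT1 after their values were seen. List names were matched to the table or to synonyms in the RefSeq table, assembly GRCg7b. Alternatives were scaling, pseudocount, filter, trend, zero entries and leaving out either wild-type library.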

Additional observations from a re-analysis of the deposited data

How the results depend on the processing

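Centring without the ribosomal protein genes, other pseudocounts (0.1 and 10), a minimum of 5 FPKM, no trend and leaving out entries at 0 kept the direction of 117 results for 39 named genes, and limma called 0 members (smallest adjusted p 1). Without the filter limma called 1 member, RPL3L, in lnc7831 knockdown and 1 in lnc3500 knockdown, both against wild-type values of 0 (adjusted p 0.0143 and 0.0441), and 183, 260 and 129 of all genes in the 3 comparisons. As deposited, the small and large subunit medians were 0.78 and 0.55 in the library labelled Wnt5a-over expression, 0.47 and 0.34 in lnc7831 knockdown and 0.71 and 0.51 in lnc3500 knockdown. Scaled to equal sums, they were -0.71 and -0.85 in lnc7831 knockdown and -0.37 and -0.57 in lnc3500 knockdown. All genes shifted with them. The smallest adjusted p of a member was 0.315 as deposited and 0.668 under equal sums, with 0 called. Relative to the median gene of the setting, 8 named results turned sign as deposited. They were 0.06 for RPL21, 0.01 for RPL29 and 0.01 for RPLP2 in the library labelled Wnt5a-over expression, and 0.00 for RPL22, 0.01 for RPL22L1, 0.07 for RPLP1, 0.04 for RPS14 and 0.05 for RPS16 in lnc3500 knockdown. Under equal sums 4 turned: RPL21 at 0.01 in the first library, RPL3 at -0.06 and RPL36 at -0.05 in lnc7831 knockdown, and RPL7 at -0.04 in lnc3500 knockdown. With 1 added, a change of scaling shifts the median gene less than these more abundant members, so a difference near 0 can turn sign.

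Leaving out wild-type replicate 1 or 2 gave large subunit medians of 0.25 and -0.25 in the library labelled Wnt5a-over expression, -0.13 and -0.58 in lnc7831 knockdown and 0.16 and -0.35 in lnc3500 knockdown. Small subunit medians ranged from 0.02 to 0.33, from -0.40 to -0.02 and from -0.09 to 0.27. These values have no test, and 31 named results turned sign in one of them. No paired analysis was possible because the treated groups have 1 library each and share fewer than 2 replicate numbers with wild type.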
